A study of Mus musculus with 8 samples.

Results

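The genes described here are 10 genes of MHC class I antigen presentation, chosen by symbol with earlier results of these data known: *H2-K1*, *H2-D1*, *B2m*, *Tap1*, *Tap2*, *Tapbp*, *Psmb8*, *Psmb9*, *Psmb10* and *Nlrc5*. They were read from tables of 24052 gene symbols, which held all 10 of them. Their mRNA was counted by RNA-Seq in mTEC 3.10, a medullary thymic epithelial cell line labelled C57BL/6, and in the *Aire* mutant clone E6 made from it with Crispr-Cas9. Each was sampled before and after thymocyte adhesion, giving 4 conditions of 2 libraries each. In the co-cultures, thymocytes from C57BL/6 mice were left on the cells for 12 h at 50 thymocytes per mTEC. They were then washed off, and the epithelial cells were collected by trypsin. The labels give the genotype of E6 as *Aire* +/- and that of the parent line as wildtype (WT), while the study's methods describe indels in both *Aire* alleles of the clone. E6 is 1 clone, so a difference between E6 and WT that comes from the *Aire* mutation and one that comes from the isolation of a single cell cannot be told apart. Nothing in the labels says that the 2 libraries of a condition came from separate cultures, so p-values measure only the spread between these libraries.

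MHC class I molecules show peptides of the cell's own proteins to CD8+ T cells, and in the thymus to developing thymocytes. Peptides are cut by the proteasome, whose catalytic subunits can be exchanged for those of the immunoproteasome, and are pumped into the endoplasmic reticulum by the TAP transporter. There tapasin and the chaperone calreticulin hold the empty class I heavy chain with beta-2-microglobulin until a peptide binds. Interferons induce most of these genes, partly through NLRC5, the class I transactivator.

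Libraries held 13506610 to 20145154 counts on genes, at which 3 counts correspond to 0.145 to 0.221 CPM, the count per 1000000 counts of the library scaled by TMM, in which all levels below are given. The epithelial genes *Epcam*, at 537 to 643 CPM, and *Krt8*, at 1378 to 2041 CPM, were high in every library, whereas *Krt5*, a keratin of medullary epithelium, lay at 0.213 to 1.02 CPM. *Aire* itself had between 0 and 3 counts per library, which is too few to check the genotypes. Replicate 1 of WT after adhesion stood apart. Genes took 66.7% of its alignments but 75.7% to 78.8% of those of the other libraries, and its counts fell by 0.46 on the log2 scale for each 10% of GC content, against slopes of -0.02 to 0.13. Of the 10 genes, *B2m* has a GC content of 41.2% over its exons and the other genes 52.5% to 57.1%. Several results that rest on that library are given with and without it, and the others include it. Culture time before collection was 24 h for replicate 2 of WT after adhesion and replicate 1 of both E6 conditions, and 12 h otherwise, and the protocol text of E6 before adhesion mentions co-culture, against its titles.

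Thymocytes also carry MHC class I molecules, so RNA of thymocytes left on the cells is counted with that of the epithelium. Of 25 thymocyte markers, 15 were analysed here. Their summed level was 0.516 to 0.729 CPM in WT before adhesion and 0.268 to 0.971 CPM in E6 before adhesion. After adhesion it was 12.7 to 18.3 CPM in WT and 89.6 to 113 CPM in E6. The genes *Ptprc*, *Thy1*, *Themis* and *Dntt* were among those that were DE after against before adhesion in E6. Macrophage, dendritic and B cell markers (16 of 17 analysed) moved likewise, and without *Csf1r*, which lay at 39.2 to 65.9 CPM in all libraries, their sum was 0.121 to 0.369 and 0.643 to 1.32 CPM before adhesion and 2.55 to 3.0 and 11.2 to 15.0 CPM after it, in WT and E6 respectively. In bulk RNA, a change in the share of cells of a type and a change in RNA per cell cannot be told apart. The part of these cells in the results after adhesion was not tested.

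Of the 10 genes, 7 lie in or near the MHC on chromosome 17, and their order there is *Tapbp*, *H2-K1*, *Psmb9*, *Tap1*, *Psmb8*, *Tap2* and *H2-D1* (chr17:33915899-35267499, GRCm38). *B2m* lies on chromosome 2 (chr2:122147686-122153083), and *Psmb10* (chr8:105935735-105938444) and *Nlrc5* (chr8:94434356-94527272) on chromosome 8. RefSeq promoters of GRCm38.p6, from 250 bases before to 50 after a start site, were at hand for 8 of the 10 genes, not for *Tap2* and *Nlrc5*. They were searched on both strands for 5 motifs of class I and interferon-responsive promoters. These were the interferon-stimulated response element (a repeat of GAAA after 2 free bases), the GAS element TTCNNNGAA, a kappa B site (GGG and CC with a TT placed between them), the core TGACG of the cyclic AMP response element, and the CCAAT box, and no 2 of them share bases in the matches shown. The promoters of the heavy chain *H2-K1*, on the minus strand at chr17:34000348-34000597, and of its partner *B2m*, on the plus strand at chr2:122147437-122147685, are shown because both hold several of these motifs close together. Sequences run 5′ to 3′ on the gene's strand, capitals mark exact matches to these patterns, and neither stretch lies in an annotated exon.

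H2-K1: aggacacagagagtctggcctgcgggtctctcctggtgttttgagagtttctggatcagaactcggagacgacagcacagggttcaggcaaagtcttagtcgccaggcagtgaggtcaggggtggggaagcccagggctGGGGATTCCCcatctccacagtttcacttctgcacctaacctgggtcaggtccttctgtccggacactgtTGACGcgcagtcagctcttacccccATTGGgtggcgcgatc
B2m: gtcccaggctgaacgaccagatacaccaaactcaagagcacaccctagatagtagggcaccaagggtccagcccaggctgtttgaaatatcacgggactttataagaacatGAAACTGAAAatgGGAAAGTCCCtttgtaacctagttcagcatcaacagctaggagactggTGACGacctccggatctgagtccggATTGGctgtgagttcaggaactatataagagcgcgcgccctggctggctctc

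In *H2-K1* the kappa B match began at base -111, the TGACG at -41 and the ATTGG, which is the CCAAT box read on the other strand, at -16, counted back from the start site of the window shown. From a second start site of *H2-K1* the same matches began at -125, -55 and -30, and a CCAAT on the gene's strand at -6. In *B2m* the response element began at -139 and a kappa B match on the other strand at -126, followed by a TGACG at -78 and an ATTGG at -53. The other heavy chain, *H2-D1*, had the same 3 motifs as *H2-K1* in the same order at -171, -101 and -76. The distances from the first base of one motif to that of the next were 70 and 25 bases in both genes. The stretches that hold the kappa B match and those from TGACG to ATTGG are set side by side to show how alike the heavy chains are there. They are from chr17:34000439-34000468 and chr17:34000359-34000388 (minus strand) for *H2-K1* and from chr17:35262913-35262942 and chr17:35262993-35263022 (plus strand) for *H2-D1*, where a longer annotated transcript covers them.

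H2-K1 kappa B: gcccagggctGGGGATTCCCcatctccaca
H2-D1 kappa B: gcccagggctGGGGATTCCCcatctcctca
H2-K1 core to CCAAT: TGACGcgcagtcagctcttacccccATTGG
H2-D1 core to CCAAT: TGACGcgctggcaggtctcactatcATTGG

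The kappa B stretches were identical at 29 of 30 bases and the others at 23 of 30. The 2 genes that the tests below turn on, *Tapbp* and *Psmb8*, lacked this arrangement, as did *Tap1*, *Psmb9* and *Psmb10*. Upstream of the start site *Tapbp* held only CCAAT boxes among the 5 motifs, of which the nearer is shown (chr17:33919301-33919330, plus strand), and *Psmb8* held 1 GAS element (chr17:34198088-34198117, plus strand). Both stretches lie in transcribed, mostly untranslated sequence of longer transcripts.

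Tapbp CCAAT: attaaaatatttATTGGtcacttcacttgg
Psmb8 GAS: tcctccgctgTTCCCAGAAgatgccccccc

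Of the 8 genes with a promoter, 1 held an exact match to the response element, 1 to the GAS element, 3 to the kappa B site, 5 a TGACG and 6 a CCAAT box. Among 32851 RefSeq promoters of the same length these were found in 3.44%, 8.30%, 4.79%, 20.8% and 37.4%. The windows of *Psmb9* and *Tap1* overlap, and the TGACG and the CCAAT box of both are the same bases, counted for each gene. A match is a description of the letters and not a bound site. Variants of an element that depart from its pattern were not searched for, so a missing match does not show that the element is absent. None of the 5 motifs was found in *Psmb10*.

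Divided by exon length, the levels of the 10 genes spanned a wide range with nearly the same order in every condition. In WT before adhesion *B2m* stood first at 203 ± 4.48 CPM per kb (SD, n = 2). *Tapbp* followed at 10.3 ± 0.0131, *H2-K1* at 9.32 ± 0.968, *H2-D1* at 9.31 ± 0.175 and *Psmb10* at 5.35 ± 0.509 CPM per kb. *Tap1* and *Tap2* lay at 1.47 ± 0.0118 and 1.39 ± 0.309 CPM per kb. *Psmb9*, at 0.0450 ± 0.00672, and *Nlrc5*, at 0.0202 ± 0.00830, were near the floor, and *Psmb8* had no count. The neighbours *H2-K1* and *H2-D1*, and *Tap1* and *Tap2*, did not differ beyond their spread in this condition. In E6 after adhesion *B2m* and *Tapbp* were still first and second, at 339 ± 6.68 and 26.2 ± 0.678 CPM per kb, and *H2-K1*, at 14.1 ± 0.509, lay above *H2-D1*, at 10.96 ± 0.852. *Tap2*, at 2.57 ± 0.507, then lay above *Tap1*, at 1.78 ± 0.142 CPM per kb, and *Psmb8*, at 0.708 ± 0.226, above *Psmb9* and *Nlrc5*.

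**Figure D1:**
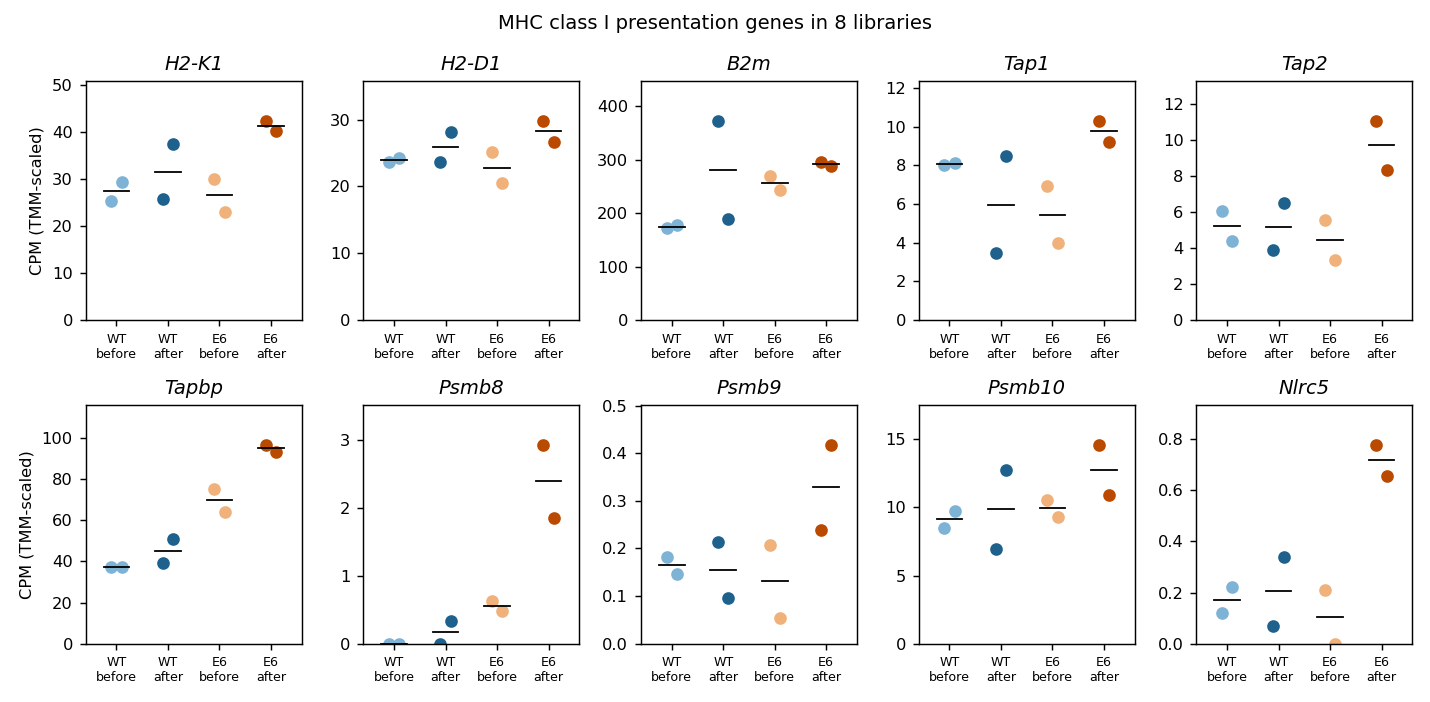
Level of each of the 10 genes in each library, as CPM on a linear axis that starts at 0 and has its own range in each panel, with the 4 conditions on the horizontal axis, a point per library and a bar at the mean of the 2 libraries. *Tapbp* was higher in each of the 4 E6 libraries than in each of the 4 WT libraries, *Psmb8* was without a count in 3 of the 4 WT libraries, and after adhesion the E6 libraries lay above those before adhesion in all 10 panels.

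The first question was how the genes differed between the *Aire* mutant clone and WT cells. Averaged over both conditions, 2 of the 9 genes that could be tested were DE, both higher in E6: *Tapbp*, the tapasin that edits peptides on class I molecules, and *Psmb8*, a catalytic subunit of the immunoproteasome. To be called DE, a gene needed an FDR under 0.05 together with an FC of 1.5 or more. Of all 11672 tested genes 11.3% were DE in this comparison, and 5.22% were DE and higher. These 2 of the 10 genes were also the ones whose 4 E6 libraries all lay above the 4 WT libraries, beside 15.7% of all tested genes. *Psmb9* had too few counts to be tested. *Psmb8* and *Nlrc5* passed the filter on low counts only through the libraries in which they were high, so the difference tested decided their entry. Their calls are a description, and without them 1 of 7 genes, *Tapbp*, was DE.

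*Tapbp* lay at 37.2 and 37.3 CPM in WT before adhesion, at 39.3 and 50.9 in WT after adhesion, at 75.3 and 64.1 in E6 before adhesion and at 96.6 and 93.1 in E6 after adhesion. The lowest E6 library was thus above the highest WT library. Over the conditions it was 1.98-fold higher in E6 (log2 FC 0.99, SE 0.11, FDR 0.0016 by the quasi-likelihood test of edgeR, adjusted after Benjamini and Hochberg). The difference was DE before adhesion as well (log2 FC 0.90, SE 0.15, FDR 0.020 by edgeR) and after it (log2 FC 1.07, SE 0.15, FDR 0.0096 by edgeR). In the libraries before adhesion the thymocyte markers summed to 0.268 to 0.971 CPM. The macrophage, dendritic and B cell markers without *Csf1r* summed there to 0.121 to 0.369 CPM in WT and 0.643 to 1.32 CPM in E6. The call in the averaged comparison held in all 15 alternatives, with a log2 FC of 0.86 to 1.10. Those before and after adhesion were lost in 6 and 3 of 16, among them the fits without either library of E6 after adhesion.

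Of the exons of *Tapbp*, 24.9% are shared with an antisense gene, *Gm19412*, and 4.11% with *Zbtb22* on the same strand, and the strand setting of the counting is not given in the sources used here. Genes around it were not shifted as a group. Over the 61 tested genes within 1 Mb, the averaged log2 FC had a median of -0.02, and 4 of them lay at or above *Tapbp*. The 571 tested genes of chromosome 17 had a median of 0.00.

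*Psmb8* had 0 counts in both WT libraries before adhesion and 0 and 7 in WT after adhesion. It had 9 and 9 counts in E6 before adhesion and 49 and 31 in E6 after adhesion, which is 0.624 and 0.482 CPM and 2.93 and 1.85 CPM. Every E6 library was above every WT library, but the highest level was under 3 CPM. Pooled over its libraries, E6 before adhesion was at least 5.45-fold higher than WT, against a floor of 3 counts over the WT group. After adhesion the ratio was 11.9 (95% interval 5.51 to 30.5, counting error only). By the quasi-likelihood test of edgeR it was DE after adhesion (log2 FC 3.56, SE 0.76, FDR 0.037) and in the averaged comparison (FDR 0.015), and not before adhesion (FDR 0.11). The averaged call was lost without either library of WT before, E6 before or E6 after adhesion. The call after adhesion was lost in 9 of 16 alternatives, with an FDR of up to 0.24, namely in these 6, with no filter on low counts, with a replicate block (FDR 0.064) and with only the 4 libraries compared. Of its exons, 14.7% overlap the antisense gene *Gm20496*.

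The remaining 7 genes were not DE in the averaged comparison, with log2 FC of 0.02 for *H2-D1*, 0.05 for *Tap1*, 0.17 for *H2-K1*, 0.24 for *Psmb10*, 0.30 for *B2m*, 0.31 for *Tap2* and 0.41 for *Nlrc5*. The median over the 9 tested genes was 0.30, against -0.01 over all tested genes. Before adhesion the median was -0.05, which is the same with *Psmb8* at its bound, and 1 of 9 was DE, with 5.01% of all tested genes. After adhesion it was 0.68 and 2 of 9 were DE, with 8.91% of all tested genes. In the 4 libraries before adhesion, 3 of the 10 genes were higher in both E6 libraries than in both WT libraries, beside 35.4% of all tested genes. Only *Tap1* was lower in both (log2 FC -0.58, not DE), beside 35.5%. After adhesion 7 were higher, beside 26.8%, and none was lower, beside 25.3%. *Psmb9*, which was not tested, is among the 7 with a lowest E6 level of 0.239 CPM against a highest WT level of 0.213 CPM. *Psmb8* and *Nlrc5*, also among them, passed the filter only through the libraries of E6 after adhesion. That comparison leaned on single libraries: 7 genes were DE without replicate 2 of WT after adhesion, where 37.7% of all tested genes were DE, and 4 without replicate 1, where 15.6% were. Without replicate 1 or 2 of E6 after adhesion *Tapbp* and *Psmb8* were no longer DE, nor was any other member, and 0.361% and 0.227% of all tested genes were.

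**Figure D2:**
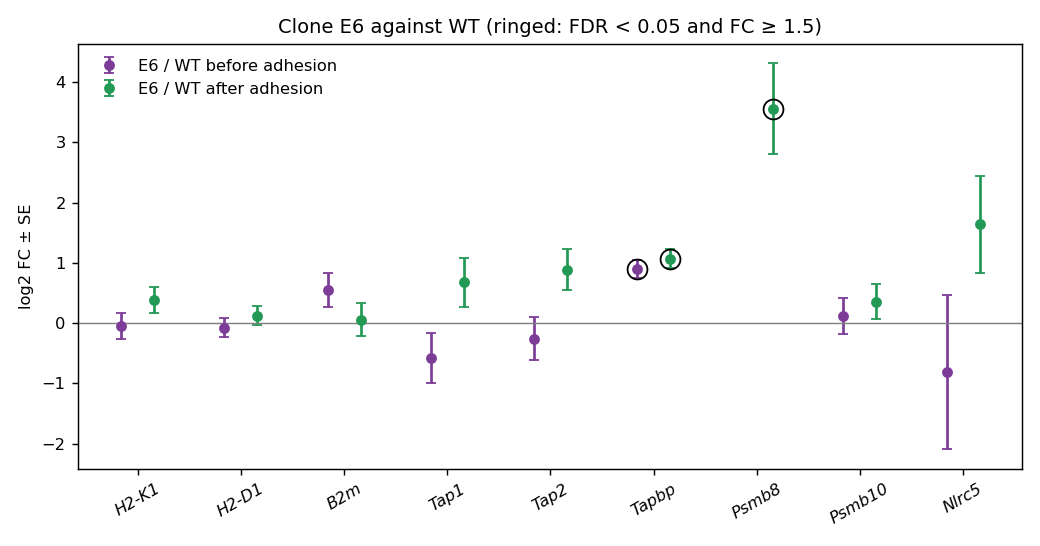
Log2 FC of E6 against WT for the 9 tested genes, before and after adhesion, with bars of 1 SE on each side, a ring where DE and a line at 0. *Tapbp* lay close to 1 in both, while *Tap1*, *Tap2* and *H2-K1* lay below 0 before adhesion and above 0 after it, with SEs up to 0.42, and no point is drawn for *Psmb8* before adhesion, where WT had no count.

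*B2m*, the light chain of every class I molecule, had the highest level of the 10 in each library, also per length. It lay at 172 and 178 CPM in WT before adhesion, at 372 and 188 in WT after adhesion, at 268 and 242 in E6 before adhesion and at 296 and 288 in E6 after adhesion. Both E6 libraries before adhesion were above both WT libraries, and the single value of 372 belongs to the library with the GC slope. *B2m* was not DE before adhesion (log2 FC 0.55, SE 0.28, FDR 0.32 by edgeR). Without replicate 1 of WT after adhesion, it joined *Tapbp* and *Psmb8* as DE in the averaged comparison, in which 13.2% of all tested genes were then DE.

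The second question was how the genes answered thymocyte adhesion. In E6, each of the 10 genes was higher in both libraries after adhesion than in both before it, beside 23.6% of all tested genes. Of the 10, *Psmb9* was not tested and had 3 and 1 counts before adhesion and 4 and 7 after it. *Psmb8* and *Nlrc5* passed the filter on low counts only through the libraries of E6 after adhesion. In WT both libraries after adhesion lay above both before it for 2 of the 10, *B2m* and *Tapbp*, beside 16.6%, and the other 8 overlapped. None of the 9 tested genes was DE, whether in E6, where 2% of all tested genes were DE, in WT, where the share was 0%, or averaged, where it was 1.89%. By DESeq2 the count was also 0 in all 3, beside 2.54%, 0.548% and 2.89% of all tested genes, in the same order. At an unadjusted p under 0.05, edgeR gave 5 of 9 in E6 (6.97% of all tested genes), 1 of 9 in WT (7.48%) and 3 of 9 averaged (9.89%). These counts, and the medians that follow, include *Psmb8* and *Nlrc5*, whose entry the difference tested decided in E6. The median log2 FC of the 9 was 0.64 in E6, 0.21 in WT (the same with *Psmb8* at its bound) and 0.43 averaged, against -0.02, 0.02 and 0.00 over all tested genes.

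Of the heavy chains, *H2-K1* lay at 30.04 and 22.98 CPM in E6 before adhesion and at 42.4 and 40.3 CPM after it. In WT it lay at 25.4 and 29.4 CPM before and at 25.8 and 37.5 CPM after adhesion. The E6 groups were apart and the WT groups overlapped, and the log2 FC in E6 was 0.64 (SE 0.21, FDR 0.40 by edgeR). *H2-D1* went from 25.1 and 20.5 to 29.8 and 26.7 CPM in E6 and from 23.7 and 24.3 to 23.6 and 28.2 CPM in WT. Its log2 FC in E6 was 0.31 (SE 0.16, FDR 0.94 by edgeR), so neither heavy chain was DE. Of the 100-base windows in their transcripts, 0.957% in *H2-K1* and 3.59% in *H2-D1* are shared with other class I genes, and reads of those windows could have been counted for another of these genes or for none.

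The products of *Tap1* and *Tap2* form the peptide pump together. *Tap1* was at 6.94 and 3.96 CPM in E6 before adhesion and at 10.3 and 9.20 CPM after it (log2 FC 0.85, SE 0.41, FDR 0.88 by edgeR). In WT it was at 8.02 and 8.11 CPM before and at 3.48 and 8.47 CPM after adhesion, where the low value is that of the library with the GC slope. *Tap2* was at 5.55 and 3.32 CPM in E6 before adhesion and at 11.1 and 8.36 CPM after it (log2 FC 1.14, SE 0.35, FDR 0.31 by edgeR). In WT *Tap2* was at 6.07 and 4.42 CPM before and at 3.90 and 6.48 CPM after adhesion. Both genes had their highest levels in E6 after adhesion, above all other libraries.

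*Nlrc5*, the class I transactivator, was scarce. It had 2 and 3 counts in WT before adhesion, 1 and 7 in WT after adhesion, 3 and 0 in E6 before adhesion and 13 and 11 in E6 after adhesion. Pooled, the ratio of E6 after to E6 before adhesion was 7.91 (95% interval 2.40 to 41.1, counting error only), and that of E6 to WT after adhesion was 3.12 (1.36 to 8.03). Neither comparison was DE in edgeR (FDR 0.43 and 0.22). For *Tapbp* in E6, the log2 FC of adhesion was 0.45 (SE 0.15, FDR 0.41 by edgeR).

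The spread of the WT libraries after adhesion enters these tests through the shared fit. Without either of them, or with only the 4 E6 libraries fitted, 5 genes were DE in E6, namely *H2-K1*, *Tap1*, *Tap2*, *Psmb8* and *Nlrc5*, all higher after adhesion. In these fits 5.41%, 5.27% and 4.71% of all tested genes were DE, more than the 2% above, and *Psmb8* and *Nlrc5* had entered through their high libraries. Without either library of E6 before or after adhesion, none of the members and 0% of all tested genes were DE in E6. Whether adhesion acted differently in E6 and WT was tested as an interaction. None of the 9 genes passed, beside 0% of all tested genes. None had an unadjusted p under 0.05 by edgeR, beside 2.54%, and DESeq2 also gave 0 DE members, beside 0.0257%. The largest differences among the better-measured genes were 1.26 (SE 0.58) for *Tap1* and 1.15 (SE 0.49) for *Tap2* on the log2 scale, each with an FDR of 0.99 by edgeR. Without replicate 2 of WT after adhesion, 5 genes passed (*H2-K1*, *B2m*, *Tap1*, *Tap2* and *Psmb10*), but so did 25.6% of all tested genes. Without replicate 1 none did, beside 1.22%.

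**Figure D3:**
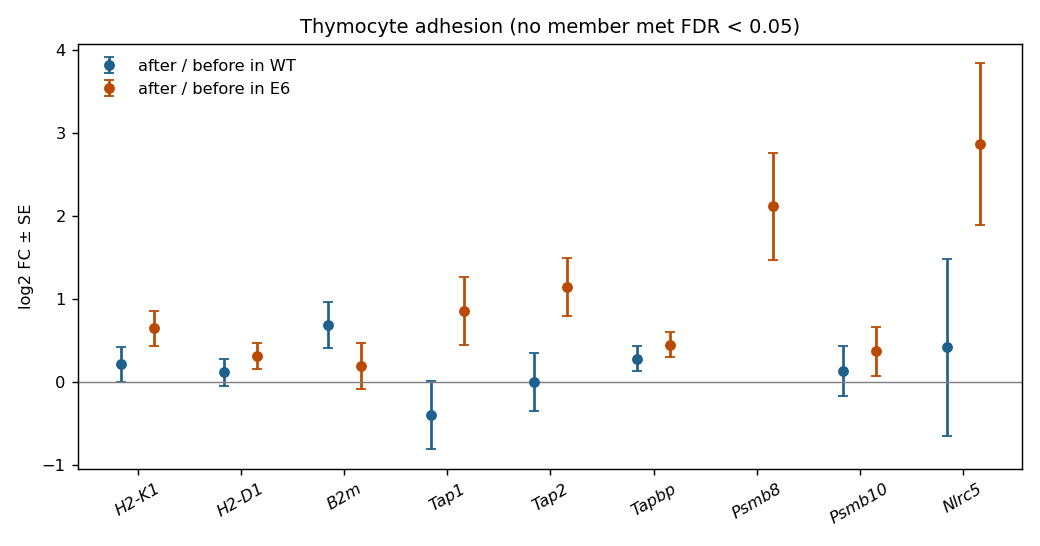
Log2 FC of after against before adhesion for the 9 tested genes in WT and in E6, with bars of 1 SE on each side and a line at 0. All E6 points lie above 0, from 0.19 for *B2m* to 2.87 for *Nlrc5*, the WT points of *Tap1* and *Tap2* do not, and no point is drawn for *Psmb8* in WT, which had no count before adhesion.

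The catalytic subunits of the proteasome exist as pairs: *Psmb8*, *Psmb9* and *Psmb10* of the immunoproteasome take the places of *Psmb5*, *Psmb6* and *Psmb7*. *Psmb10* was the only one of the 3 that was well measured, at 8.50 and 9.73 CPM in WT before adhesion, 6.95 and 12.8 in WT after adhesion, 10.5 and 9.32 in E6 before adhesion and 14.6 and 10.9 in E6 after adhesion. Its groups overlapped in WT, and it was not DE in E6 on adhesion (log2 FC 0.36, SE 0.29, FDR 1 by edgeR). *Psmb9* had 3 and 2 counts in WT before adhesion, 3 and 2 in WT after, 3 and 1 in E6 before and 4 and 7 in E6 after adhesion. Its pooled ratio of E6 after to before adhesion was 2.72 (95% interval 0.806 to 11.7, counting error only), so no difference was detectable at this depth.

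Of the counts on all 6 catalytic subunits, those of the immunoproteasome made up 3.01% (95% Wilson interval 2.56 to 3.53) and 3.49% (2.95 to 4.12) in WT before adhesion, and 3.54% and 4.53% in WT after adhesion. In E6 they made up 4.76% (4.10 to 5.52) and 3.99% (3.47 to 4.60) before adhesion, and 7.69% (6.89 to 8.58) and 6.16% (5.42 to 6.99) after it. Both libraries of E6 after adhesion lay above the other 6. Of *Psmb8* and *Psmb5* together, *Psmb8* made up 2.5% and 2.16% in E6 before adhesion and 12.1% (9.25 to 15.6) and 8.86% (6.31 to 12.3) after it. In WT the share was 1.09% in replicate 2 after adhesion and 0 in the other 3 libraries. A limit of 3 counts then allows up to 0.703% and 0.806% before adhesion and, with 89 counts in replicate 1 after adhesion, 3.37%, and the upper Wilson bounds were 0.892%, 1.02% and 4.14%. Intervals and floors cover counting error only.

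None of the constitutive subunits was DE with all libraries. *Psmb5* lay at 19.1 to 24.3 CPM in E6 and at 25.9, 27.4, 6.31 and 30.8 CPM in WT, of which 6.31 is again the library with the GC slope. Without the other library of that condition, replicate 2, *Psmb5* was DE and higher in E6 (log2 FC 0.75, FDR 1.13e-06 by edgeR). *Psmb6* was at 64.0 to 77.6 CPM in E6 and at 45.3 to 103 CPM in WT, and *Psmb7* at 118 to 138 CPM in E6 and 143 to 151 CPM in WT. *Psmb7* was lower in each E6 library, with a log2 FC of -0.21 (SE 0.07, FDR 0.080 by edgeR). *Psmb11*, the catalytic subunit of cortical thymic epithelium, had 0 counts in all 8 libraries.

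**Figure D4:**
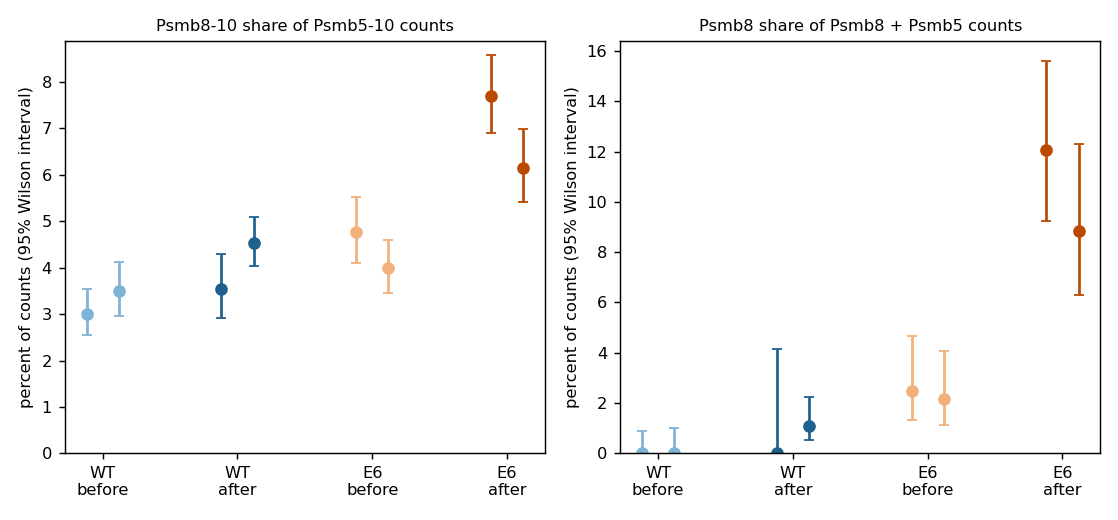
Share of counts, in percent, that fell on the immunoproteasome subunits among the 6 catalytic subunits (left) and on *Psmb8* among *Psmb8* and *Psmb5* (right), with a point per library and its 95% Wilson interval. The 2 libraries of E6 after adhesion are highest in both panels, at 7.69% and 6.16% and at 12.1% and 8.86%.

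Ratios within a library do not depend on its scaling, and 5 pairs of genes, chosen after their values were seen, were compared between E6 and WT and between after and before adhesion, which gives 10 tests. The log2 ratio of *Tapbp* to *Calr*, the calreticulin of the same loading complex, was -5.29 ± 0.51 in WT and -4.18 ± 0.34 in E6 (SD, n = 4 each). The 4 E6 libraries were all above the 4 WT libraries (difference 1.11, two-sided exact permutation p = 0.0286, the smallest this design allows, adjusted p = 0.286). Without replicate 1 of WT after adhesion, in which *Calr* was highest, the difference was 0.88 (exact permutation p = 0.0571, adjusted p = 0.143). *Calr* was at 1360 to 2459 CPM and was not DE (log2 FC -0.15, FDR 0.59 by edgeR). The pairs *Tap1* and *Tap2*, *H2-K1* and *H2-D1*, *H2-K1* and *B2m*, and *Psmb10* and *Psmb7* had exact permutation p-values from 0.0857 to 1, so none of the 10 passed the adjustment. Without replicate 1 of WT after adhesion, the ratio of *H2-K1* to *H2-D1* was 0.30 higher on the log2 scale after adhesion and that of *Tap1* to *Tap2* 0.40 lower in E6. Both had an exact permutation p of 0.0286 and an adjusted p of 0.143.

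Across the 8 libraries, the members closest to each other in profile were *H2-K1* and *H2-D1*, with a root mean square difference of 0.170 in centred log2 CPM, followed by *H2-K1* and *Psmb10* (0.181). The genes outside the list nearest to the mean profile of the 9 tested members were *Helz2* (0.132), *Gdpd5* (0.155), *Klhl8* (0.159), *Tigd5* (0.176) and *Lif* (0.186). The mean profile of the members was -0.43 and -0.37 in WT before adhesion, -0.57 and 0.12 in WT after adhesion, 0.12 and -0.37 in E6 before adhesion and 0.87 and 0.63 in E6 after adhesion. *Psmb8* and *Nlrc5*, which entered through their high libraries, are part of this mean. *Psmb8* lay 1.19 to 1.64 from each other tested member. The libraries share their scaling and depth, and the likeness is a description.

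Around the 10 genes, 94 others of the pathway and of its regulation were listed, of which 76 could be tested. Between E6 and WT, averaged, 2 were DE and higher and 3 DE and lower, 6.58% of the 76 beside 11.3% of all tested genes. None of the 14 chaperones, peptidases and other loading genes was DE, none of the 7 genes of the PA28 list and none of the 14 constitutive proteasome subunits. The trimming peptidase *Erap1* came nearest, at 19.8 to 34.3 CPM in WT and 34.1 to 43.9 CPM in E6, with an FDR of 0.019 by edgeR and a log2 FC of 0.58, just under the limit on FC. In 6 of 15 alternatives *Erap1* was DE and higher in E6.

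Of the other class I genes listed, 6 of 19 could be tested. *Mr1*, which presents microbial metabolites, was lower in E6, at 8.30 to 11.3 CPM against 13.6 to 19.3 CPM in WT (log2 FC -0.70, SE 0.16, FDR 0.020 by edgeR). *H2-T23*, which encodes Qa-1, was at 8.73 to 12.0 CPM in E6 and 9.36 to 18.8 CPM in WT and was not DE (log2 FC -0.48, FDR 0.16 by edgeR). *H2-Q4* went from 3.12 and 1.87 CPM to 10.1 and 9.32 CPM on adhesion in E6 and from 5.10 and 6.34 to 8.02 and 8.42 CPM in WT. It rose in E6 (log2 FC 1.97, FDR 0.014 by edgeR) and averaged over both cell types (log2 FC 1.25, FDR 0.018 by edgeR), and before adhesion it was lower in E6 (log2 FC -1.21, FDR 0.046 by edgeR). These calls were lost in 4 of 16, 5 of 15 and 9 of 16 alternatives, in that order. It is a close paralog of other class I genes, so its counts are uncertain.

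Among 16 regulators of class I promoters, 15 were tested. *Rfxap*, a subunit of the RFX complex with which NLRC5 acts, was lower in E6, at 3.83 to 5.04 CPM against 6.62 to 11.1 CPM in WT (log2 FC -0.87, FDR 0.0072 by edgeR). *Nfyb*, a subunit of the CCAAT-binding factor NF-Y, was lower as well, at 30.5 to 34.3 CPM against 43.6 to 58.3 CPM (log2 FC -0.59, FDR 0.0084 by edgeR). *Rfx5* was not DE (log2 FC -0.16, FDR 0.44 by edgeR). In 12 genes of interferon signalling, *Irf9*, the DNA-binding part of the type I interferon complex, was higher in E6, at 14.8 to 36.7 CPM against 9.36 to 22.6 CPM (log2 FC 0.85, FDR 0.0072 by edgeR). The calls of *Rfxap* and *Irf9* held in all 15 alternatives, whereas that of *Mr1* was lost in 7 and that of *Nfyb* in 12, with a log2 FC as small as -0.47 for the latter.

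On adhesion, averaged, 9 of the 76 were DE and all 9 were higher, 11.8% beside 1.79% of all tested genes that were DE and higher. Of the 9, *Ctss* and *H2-Ab1* had no count before adhesion and passed the filter on low counts only through libraries after it. The difference tested decided their entry, so their calls are a description. *Irf1*, a factor that binds interferon response elements, went from 9.59 and 11.8 to 16.7 and 29.8 CPM in WT and from 7.98 and 6.91 to 19.9 and 36.6 CPM in E6 (log2 FC 1.53, SE 0.26, FDR 0.034 by edgeR). Each library after adhesion was above each library before it within its cell type. The call of *Irf1* was lost in 7 of 15 alternatives, with unchanged sign, and without either library of E6 after adhesion none of the 76 genes was DE, beside 0.328% and 0.396% of all tested genes. *Irf9* (log2 FC 1.06), *Stat2* (0.66), the interferon gamma receptor chain *Ifngr2* (0.63) and *H2-Q4* (1.25) were also DE and higher. Their calls were lost in 5, 7, 10 and 5 of 15 alternatives. So were *Cd74*, *Ctss* and *H2-Ab1*, of MHC class II presentation, whose calls were lost in 11, 2 and 9 of 15. They are genes of macrophages and B cells too, whose markers were higher in the same libraries.

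**Figure D5:**
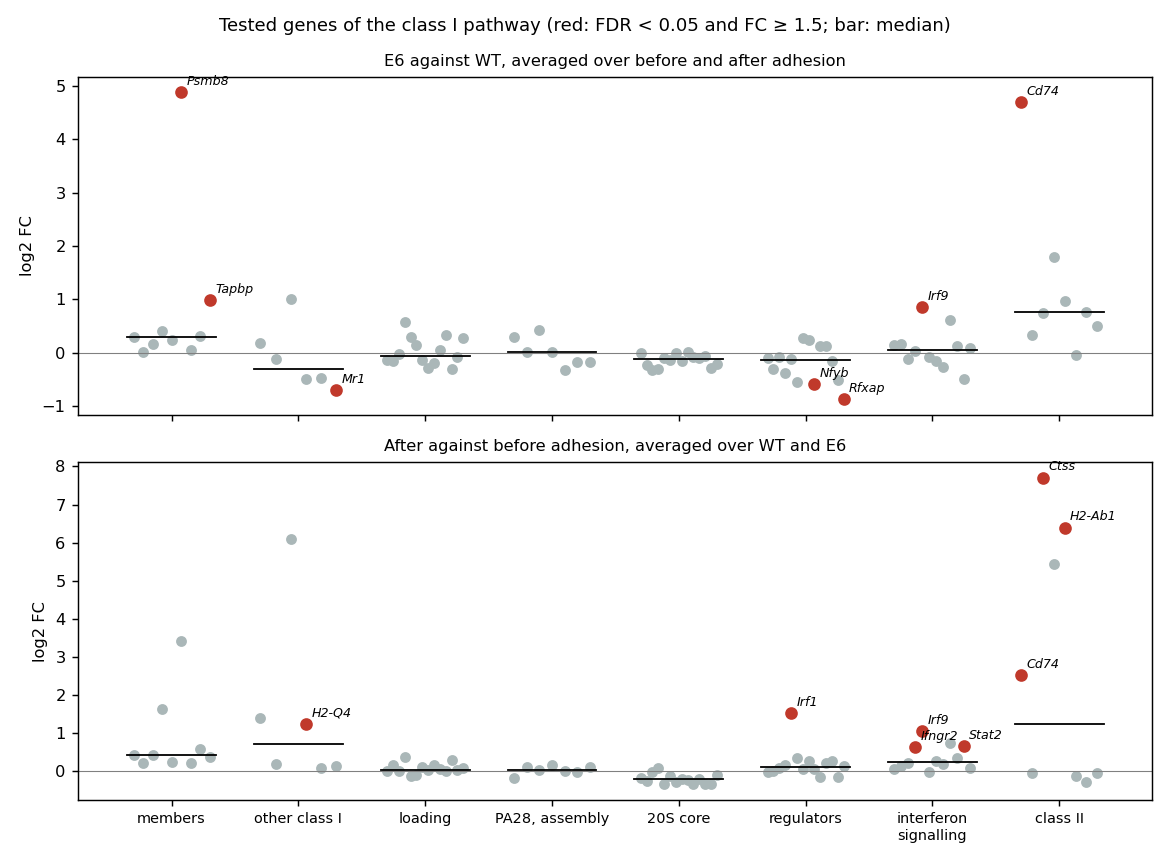
Log2 FC of E6 against WT averaged over both conditions (top) and of after against before adhesion averaged over both cell types (bottom) for the tested members and the tested genes of each further list except 1 regulator, with a point per gene, red where DE, a black bar at the median of each list and a grey line at 0. Between cell types the DE members *Tapbp* and *Psmb8* stand above the loading genes, none of which is DE, and on adhesion the DE points lie among the other class I, regulator, interferon and class II genes and not among the members, while points of genes without a count in a condition depend on the prior count.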

How the data were processed

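RNA-Seq counts were made by the authors, who aligned paired-end reads to mm10 with STAR 2.5.0a (version per the submitters' processing notes) and counted reads per gene with HTSeq. The deposited counts are whole numbers per gene symbol, not normalized. The gene annotation and strand setting are not given in the sources used here. In replicate 1 of E6 before adhesion, 18 symbols turned into dates were restored from the gene order. Samples were grouped by title and source name.

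Libraries held 13506610 to 20145154 counts, and values under 3 counts are at the floor. With edgeR 4.0.16 in R 4.3.3, 11672 genes kept by filterByExpr were scaled by TMM and fitted by quasi-likelihood with 1 mean per condition over all 8 libraries, with p-values adjusted by Benjamini-Hochberg over all of them. The limits for DE were an FDR of 0.05 and a point FC of 1.5. SEs are the absolute log2 FC divided by the square root of F. Log2 CPM used a prior count of 2. Gene-pair ratios were compared by two-sided exact permutation tests with scipy 1.17.1. The fit was tested on simulated data. Coordinates and exon lengths are from GENCODE vM21 on GRCm38, sequences from RefSeq GRCm38.p6.

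The members and gene lists were chosen with earlier results of these data known. Named genes were all 10 members, DE genes of the other lists, *Psmb5*, *Psmb6*, *Psmb7*, *H2-T23*, *Calr*, *Irf1*, *Rfx5*, *Ciita* and *Psmb11*, at most 4 further genes per list by size of log2 FC, and the 5 genes nearest in profile. A gene of the regulator list is counted but not reported here. The alternatives were RLE size factors, DESeq2 1.42.0, no filter on low counts, a replicate block, a culture time term, only the 4 libraries compared, leaving out each library, no FC limit for the further lists, and, added after seeing the data, a GC correction alone and with the replicate block.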

Additional observations from a re-analysis of the deposited data

How the results depend on the processing

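The number of DE members was within 1.5 times its value under most alternatives. It was 2 in place of 1 by DESeq2 for E6 against WT before adhesion, beside 7.21% of all tested genes in place of 5.01%. For E6 against WT after adhesion it was 1 in place of 2 with no filter on low counts, beside 5.09% in place of 8.91%. With only the 4 libraries compared it was 2 in place of 1 before adhesion, where *Tap1*, lower in E6, was added and 13.1% of all tested genes were DE. After adhesion it was 0 in place of 2, where 0% were, and 5 in place of 0 for adhesion in E6, where 4.71% were. Leaving out each library in turn, it ran from 1 to 3 for averaged E6 against WT, from 0 to 3 before adhesion and from 0 to 7 after it. It ran from 0 to 2 for averaged adhesion, from 0 to 2 for adhesion in WT, from 0 to 5 for adhesion in E6 and from 0 to 5 for the interaction. In the same fits the share of all tested genes that were DE ran, in the same order, from 5.61% to 21.4%, from 0.31% to 12.7%, from 0.227% to 37.7%, from 0.328% to 11.2%, from 0% to 29.8%, from 0% to 5.41% and from 0% to 25.6%. The highest share came without replicate 2 of WT after adhesion, except for adhesion in E6, where it came without replicate 1, and before adhesion, where both gave 12.7%. The lone library of a condition is then assumed to vary like the others. Among the further genes of the pathway, 14 in place of 5 passed for averaged E6 against WT with no FC limit, and 3 to 11 without a library. For averaged adhesion 3 in place of 9 passed with a culture time term, and 0 to 16 without a library. With the culture time term 1.06% of all tested genes were DE on averaged adhesion, in place of 1.89%. Apart from what a fit with fewer samples tests, the cause of these shifts was not tested.

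Replicate numbers were shared between conditions, but the libraries of a number did not deviate together. The correlation of deviations over 9768 genes was 0.22 for WT before and after adhesion and -0.079 to 0.023 for the other pairs of conditions, so the numbers were not treated as pairs. With a replicate block the count of DE members after adhesion was 1 in place of 2, as *Psmb8* was lost. That of the further genes on averaged adhesion was 5 in place of 9. Of all tested genes 6.18% and 1.19% were DE in these comparisons, in that order, in place of 8.91% and 1.89%. The block also turned the sign of *Psmb5* in averaged E6 against WT (0.025) and of *Tap2* for adhesion in WT (0.037), and it changed no other call of a member.

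Signs that turned belonged to log2 FC that were not DE with all libraries. Without replicate 2 of WT after adhesion *Psmb5* turned to 0.75 in averaged E6 against WT and was DE (FDR 1.13e-06 by edgeR). *B2m* turned to -0.33 after adhesion in the same fit (FDR 0.000223 by edgeR), and *Calr* to 0.11 without replicate 1 (FDR 0.00972 by edgeR), both under the FC limit. The culture time term gave -0.035 for *H2-D1* and -0.089 for *Tap1* in averaged E6 against WT, -0.11 for *Psmb10* before adhesion, and -0.012 for *H2-D1*, -0.17 for *Psmb10* and -0.28 for *Nlrc5* on adhesion in WT. The GC correction, alone and with the replicate block, gave -0.086 and -0.089 for *H2-D1* and -0.032 and -0.037 for *Tap1* in averaged E6 against WT, -0.045 and -0.047 for *H2-D1* after adhesion, and 0.12 and 0.18 for *Tap2* on adhesion in WT. Without a library, averaged E6 against WT ran from -0.050 to 0.10 for *H2-D1*, -0.18 to 0.46 for *Tap1*, -1.45 to 1.20 for *Nlrc5*, -0.39 to 0.75 for *Psmb5*, -0.49 to 0.090 for *Psmb6*, -0.32 to 0.11 for *Calr*, -0.37 to 0.13 for *Irf1* and -0.27 to 0.014 for *Rfx5*. E6 against WT before adhesion ran from -0.25 to 0.13 for *H2-K1*, -0.22 to 0.065 for *H2-D1*, -0.66 to 0.076 for *Tap2* and -4.55 to 0.30 for *Nlrc5*, and after adhesion from -0.33 to 0.66 for *B2m*. Averaged adhesion ran from -0.17 to 0.48 for *Tap1* and -0.0092 to 0.44 for *Psmb10*. Adhesion in WT ran from -0.097 to 0.45 for *H2-K1*, -0.035 to 0.23 for *H2-D1*, -1.22 to 0.067 for *Tap1*, -0.45 to 0.28 for *Tap2*, -0.40 to 0.49 for *Psmb10* and -1.16 to 0.99 for *Nlrc5*. The interaction ran from -0.87 to 0.12 for *B2m*, -3.38 to 2.13 for *Psmb8* and -0.093 to 0.78 for *Psmb10*. Without replicate 2 of WT after adhesion, *Psmb8* had no count left in WT and gives no value for adhesion there. With 3 counts at 0.145 to 0.221 CPM, *Psmb9* and *Nlrc5* were limited by depth.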

Other observations

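The class II chains and the invariant chain depend on the transactivator CIITA in mature medullary epithelium. Of 12 listed genes of class II presentation, the lysosomal protease *Ctsl*, at 355 to 545 CPM, and the reductase *Ifi30*, at 32.1 to 57.5 CPM, were measured well in every library, while those described next were scarce. *Ciita* had no count in WT, before or after adhesion, nor in E6 before adhesion, and 5 and 3 counts in E6 after it. *Cd74*, the invariant chain, was at 0.0607 and 0 CPM in WT before adhesion, at 0.709 and 0.339 CPM in WT after adhesion, at 2.22 and 2.30 CPM in E6 before adhesion and at 5.63 and 6.45 CPM in E6 after adhesion. It was DE and higher in E6 in the averaged comparison in all 15 alternatives (FDR 0.00056 by edgeR). *Cd74* passed the filter on low counts only through the E6 libraries, so the difference tested decided its entry. Its call is a description. In E6 before adhesion, the thymocyte markers summed to 0.268 to 0.971 CPM. There the macrophage, dendritic and B cell markers without *Csf1r* summed to 0.643 to 1.32 CPM, against 0.121 to 0.369 CPM in WT before adhesion. *Ctss*, a protease that trims the invariant chain, and *H2-Ab1*, a class II beta chain, had no count in any library before adhesion. After adhesion *Ctss* was at 1.21 and 0.726 CPM in WT and at 2.69 and 2.63 CPM in E6, and *H2-Ab1* at 0.355 and 0.290 CPM in WT and at 1.08 and 1.43 CPM in E6. *Lyz2*, a marker of macrophages, also had no count before adhesion and was at 0.851 and 1.16 CPM in WT and at 6.52 and 5.26 CPM in E6 after it. The part of such cells in the class II values was not tested.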
